A study of Mus musculus with 6 samples.

Results

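The proteasome genes of the mouse liver are described here in mice with and without the kinase LKB1, which is encoded by Stk11. Members were the genes whose symbol starts with Psma, Psmb, Psmc, Psmd, Psme, Psmf or Psmg followed by a number, leaving out 4 symbols marked as pseudogenes, and the rule found 50 of the 55450 genes listed. Poly(A) RNA was sequenced from the left liver lobe of 6 mice of strain C57BL/J, 1 library per mouse. The 3 knockout mice (KO 1, KO 2 and KO 3) carried LKB1 fl/fl, an allele flanked by loxP sites, and the 3 wild-type mice (WT 1, WT 2 and WT 3) carried none. Both groups received AAV8 Cre, an adeno-associated virus that carries the Cre recombinase, at 6 weeks of age, and livers were taken 4 weeks later, at 10 weeks. The control mice therefore share the virus and Cre but not the loxP alleles, and the labels name no promoter that would limit Cre to 1 cell type. The series title names metabolic reprogramming as its subject, and the comparison reported is the effect of the knockout on each proteasome transcript.

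The proteasome is the large protease that degrades proteins tagged with ubiquitin. Its 20S core is a barrel of alpha and beta rings, and 3 of the beta subunits cut the substrate. The 19S regulator caps the barrel, binds and unfolds the tagged protein, and feeds it in with its ring of ATPases. Interferon exchanges the 3 cutting subunits for immunoproteasome subunits and raises the PA28 cap, which changes the peptides made for display on class I molecules. In the liver the proteasome is also known for removing misfolded proteins and short-lived metabolic enzymes, and dedicated chaperones assemble the core and the regulator.

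Of the 50 members, 49 had enough counts to be tested among 14539 genes. The exception was Psmb11, a catalytic subunit of the thymus, with 0 counts in every library. Psma8, the testis form of an alpha subunit, had between 25 and 104 counts per library, Psme2b is a retrogene copy of Psme2, and Psmc3ip, which shares only the prefix, encodes a meiotic recombination protein and had between 5 and 25 counts. Total counts ran from 47659122 to 56147667 per library. Stk11 checked the labels: it measured 22.2, 14.4 and 11.4 CPM (counts scaled to a common library size) in the knockout livers and 66.1, 64.2 and 69.7 CPM in the WT livers, a log2 fold change of -2.06 ± 0.25 (SE, edgeR quasi-likelihood, adjusted p = 0.0167). That call did not hold without KO 2, KO 3, WT 2 or WT 3, where the adjusted p-value ran from 0.0607 to 0.104 while the log2 fold change stayed between -1.87 and -2.08. The 10 hepatocyte markers were abundant in all 6 livers but not level, with a sum of 92270, 36320 and 60920 CPM in the knockout and 147400, 118200 and 104600 CPM in WT. Their median log2 fold change was -0.78. Without overlap between the groups 6 were lower and 3 higher, or 60% and 30%, against 15.5% and 16.9% of all genes. By edgeR 1 of 10 was called, Tat, which rose, where 3.37% of all genes tested were called. KO 1 and WT 1 had Xist counts of 42472 and 29243 and at most 6 counts over 4 Y-linked genes, while the other 4 libraries had between 6146 and 8199 Y-linked counts. The labels give no sex, so each group holds 1 library of one kind and 2 of the other, and values within the 4 libraries with Y-linked counts are given beside the main ones.

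No proteasome gene changed at an adjusted p-value of 0.05, in either direction (edgeR quasi-likelihood, 0 of 49), where 3.37% of all genes tested did. Before adjustment, 6 members had a p-value under 0.05, with 5 above and 1 below WT, or 12.2% of those tested against 26.3% of all genes. The knockout and WT ranges did not overlap for 5 members that were higher and 2 that were lower, 10.2% and 4.08% of the members, against 16.9% and 15.5% of all genes. The fold changes were also smaller than usual in this table. The median size of the log2 difference was 0.18 for the members and 0.33 for all genes, and the 95% interval lay within a 2-fold change either way for 42 of 49 members, or 85.7%, against 53.4% of all genes. The direction was uneven, with 37 members above 0 and 12 below, and a median log2 fold change of 0.14 against 0.01 for all genes. All genes include many with fewer counts, and the lists were not matched for level. DESeq2 called 3 members higher, or 6.12% against 8.74% of all genes, and 0 lower against 7.01%. With limma voom 0 were called, against 2.97% of all genes.

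The 3 knockout livers did not lie on the same side of WT. Across the 31 constitutive genes of the 20S core and the 19S regulator, KO 1 lay below all 3 WT livers for 22 genes and above them for 0. KO 2 lay above all 3 WT livers for 27 of the 31 and KO 3 for 28, and neither lay below them for any. Over all genes tested, KO 1 was below the WT range for 32.2% of genes, KO 2 above it for 40.0% and KO 3 above it for 38.4%. The median log2 difference from the WT mean over these 31 genes was -0.15 in KO 1, 0.26 in KO 2 and 0.20 in KO 3. With scaling by library size alone the same medians were -0.07, 0.40 and 0.11. KO 1 was then below the WT range for 18 of the 31 genes and above it for 3. KO 2 was above the WT range for 31 genes and KO 3 for 20, and KO 3 was below it for 4. Over all genes, the shares above the WT range were 38.5% in KO 1, 47.8% in KO 2 and 32.5% in KO 3. The shares below it were 25.7%, 31.9% and 44.0%. The median of all genes moved to 0.13 in KO 2 and -0.10 in KO 3. KO 1 is also the knockout liver with Xist counts and the one with the most remaining Stk11, and the part of either in its lower values was not tested. The median log2 difference of the hepatocyte markers from the WT mean was -0.32 in KO 1, -1.52 in KO 2 and -0.73 in KO 3. Alb alone took 5.25%, 1.13% and 1.63% of the counts in the knockout livers and between 5.6% and 9.76% in the WT livers, and the part of these markers in the proteasome values was not tested.

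**Figure D1:**
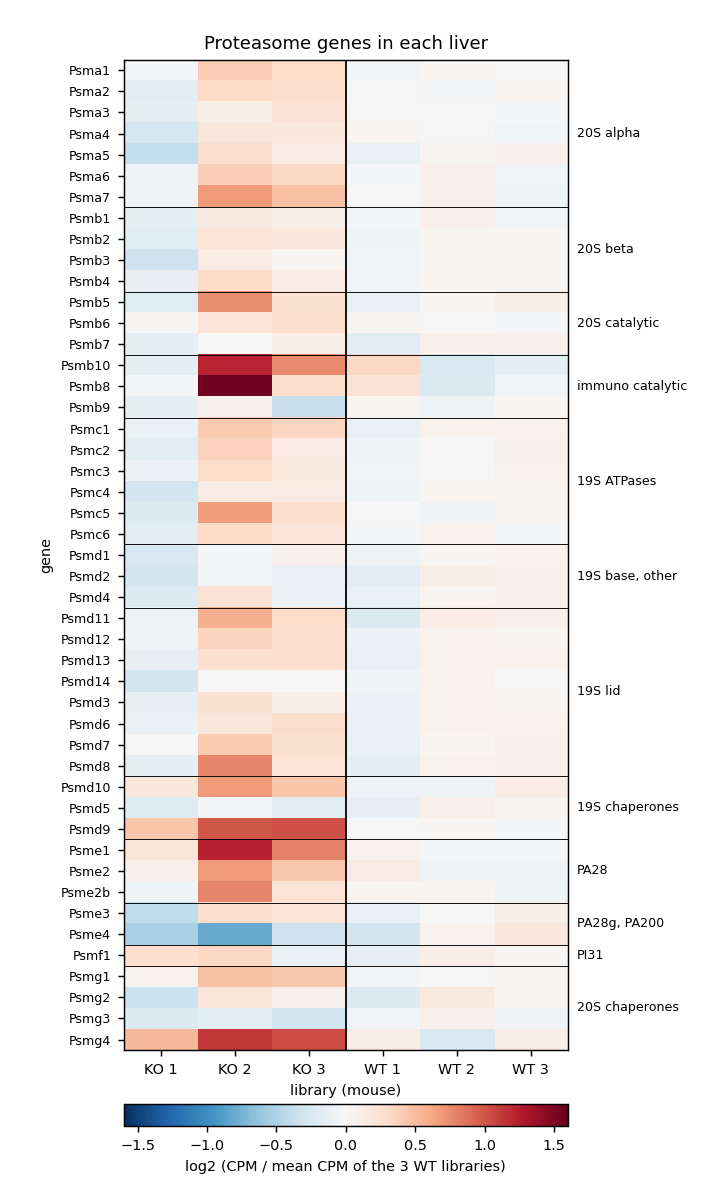
Each row is 1 proteasome gene and each column 1 liver, and the colour gives the log2 of its CPM over the mean of the 3 WT livers, for the 47 genes with a WT mean of at least 1 CPM. The KO 1 column is mostly blue and the KO 2 and KO 3 columns mostly red, with the deepest red at Psmb8, Psmb10 and Psme1 in KO 2.

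Stretches of the promoters of 6 members are shown so that the matches to letter patterns known from factors acting on proteasome genes can be seen. Psmb5 is shown as a constitutive cutting subunit, and the other genes are described one by one below. Apart from the interferon core, the patterns were about as common in the members as in promoters at large, or less common. RefSeq windows of GRCm38.p6, from 250 bases before to 50 bases after the start of the gene, were found for 42 of the 50 members. Of the antioxidant response element, which the factors Nfe2l1 and Nfe2l2 bind, the core TGACNNNGC was searched on both strands. It was in the windows of 6 of the 42 members, or 14.3%, and in 12.4% of all 32851 windows: Psmb5, Psmb6, Psmc6, Psmd9, Psmd12 and Psme4. Here and below, a member counted once if any of its windows matched (45 windows for the 42 members). All windows were counted singly, so the shares compared are not in the same unit. A core of the element through which interferon acts, GAAA and GAAA with any 2 bases between them, was in 5 members, or 11.9%, and in 3.44% of all windows: Psmb3, Psmd4, Psmd9, Psme1 and Psmg4. Forms of the gamma-activated site, TTC and GAA with any 3 or any 4 bases between them, were in 3 members and 1 member, or 7.14% and 2.38%, and in 8.30% and 6.95% of all windows. The 3 were Psmb8, Psmd2 and Psmg1, and the 1 was Psmb10. All 6 genes shown had a log2 fold change above 0. Of the members with any of these matches, Psme4 (-0.54), Psmd2 (-0.14), Psmb3 (-0.04) and Psmd4 (-0.02) were below 0 and the rest above. CCAAT was in 15 members, or 35.7%, and in 37.4% of all windows. A match describes letters and shows no binding. Each sequence below runs 5′ to 3′ on the strand of the gene, with the match in capitals, and the longer one shows the 2 matches of Psmd9, the gene closest to the threshold. Psmb5 (TGACNNNGC) lies at chr14:54618024-54618053, minus strand, and Psmd9 (the interferon core, then TGACNNNGC) at chr5:123227981-123228189, plus strand. Psmg4 and Psme1 (the interferon core, on the opposite strand in Psme1) lie at chr13:34162969-34162998 and chr14:55578493-55578522, plus strand, with the match just after the RefSeq start. Psmb8 (the form with 3 bases) lies at chr17:34198087-34198116, plus strand, and Psmb10 (the form with 4 bases) at chr8:105938440-105938469, minus strand.
Psmb5: acgtgaagttgTGACGTCGCggcgttgcca
Psmd9: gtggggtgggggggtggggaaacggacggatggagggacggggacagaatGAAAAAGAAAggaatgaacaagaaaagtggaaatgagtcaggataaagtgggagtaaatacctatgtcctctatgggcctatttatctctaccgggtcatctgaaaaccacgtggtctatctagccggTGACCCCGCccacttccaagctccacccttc
Psmg4: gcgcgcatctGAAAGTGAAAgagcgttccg
Psme1: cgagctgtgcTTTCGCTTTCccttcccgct
Psmb8: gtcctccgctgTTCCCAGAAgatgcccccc
Psmb10: gtaacttcagTTCCAGGGAAtctgatgccc

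The 14 constitutive genes of the 20S core did not pass the test, and their intervals stayed within a 2-fold change either way. All 14 had a 95% interval between 0.748-fold and 1.84-fold of WT, 12 of the 14 fold changes were above 0, and the median log2 fold change was 0.09. In the 7 genes of the alpha ring, whose tails gate the entrance of the barrel, the log2 fold changes were all above 0, from 0.02 for Psma5 to 0.39 for Psma7. Psma7 measured 66.0, 110 and 95.3 CPM in the knockout livers and 68.3, 72.6 and 65.4 CPM in the WT livers, with an adjusted p-value of 0.253. KO 1 lay inside the WT range and the other 2 knockout livers lay above it. Psma5 measured 47.4, 75.02 and 67.7 CPM in the knockout livers and 57.8, 64.3 and 65.5 CPM in the WT livers. Here KO 1 was the lowest and KO 2 the highest of all 6. The 4 beta-ring genes without a cutting site ran from -0.04 for Psmb3 to 0.11 for Psmb4 on the log2 scale. The sign of values this close to 0 was not stable: Psma5, Psmb3 and Psmb7 changed sign under other settings.

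The 3 constitutive cutting subunits are encoded by Psmb5, for the chymotrypsin-like site, Psmb6, for the caspase-like site, and Psmb7, for the trypsin-like site. Psmb5 (ENSMUSG00000022193.7, GRCm38 chromosome 14, 54614119 to 54618022, minus strand) measured 64.3, 124 and 87.3 CPM in the knockout and 67.7, 74.9 and 78.7 CPM in WT. Its difference was 0.31 ± 0.24 on the log2 scale (SE, edgeR quasi-likelihood adjusted p = 0.433). KO 2 stood far above the rest, and KO 1 was the lowest of the 6. Psmb6 measured 82.5, 95.2 and 99.6 CPM against 83.3, 82.3 and 79.7 CPM, a log2 fold change of 0.18 ± 0.12. Psmb7 measured 99.4, 109 and 118 CPM against 98.0, 117 and 115 CPM, a log2 fold change of -0.02 ± 0.14, and the ranges of the groups overlapped.

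The 17 genes of the 19S regulator did not pass the test either. Their 95% intervals all lay between 0.706-fold and 1.87-fold of WT, with 12 fold changes above 0 and 5 below and a median log2 fold change of 0.13. Among the 6 ATPases, which unfold the substrate, the log2 values ran from -0.01 for Psmc4 to 0.28 for Psmc5. Psmc5 measured 58.4, 108 and 80.8 CPM in the knockout and 68.4, 65.3 and 69.8 CPM in WT, so KO 1 was the lowest and KO 2 the highest liver. All 3 other subunits of the base were at or below 0, from -0.14 for Psmd2, a scaffold that receives ubiquitin-bound proteins, to -0.02 for the ubiquitin receptor Psmd4. Psmd2 measured 167, 199 and 190 CPM against 180, 218 and 214 CPM. The 8 lid genes ran from -0.09 for Psmd14, the enzyme that cuts ubiquitin off the substrate, to 0.34 for Psmd8, a structural lid subunit. Psmd8 measured 79.7, 152 and 103 CPM in the knockout and 80.2, 92.0 and 92.5 CPM in WT, and again KO 2 stood highest and KO 1 lowest. Psmc4 and Psmd4 changed sign under other settings.

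**Figure D2:**
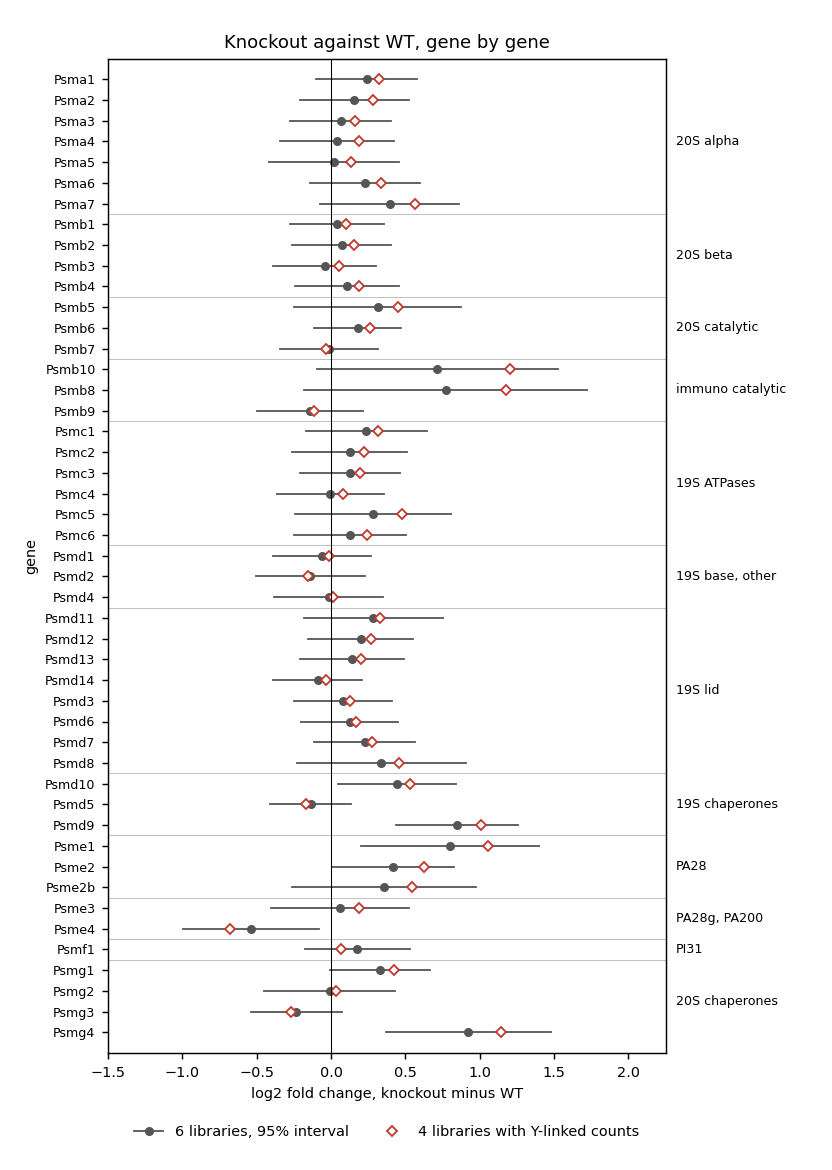
Points give the log2 fold change of knockout over WT per gene with its 95% interval from all 6 livers (grey), and open diamonds give it in the 4 livers with Y-linked counts. Core and 19S genes cluster near 0, Psmd9 and Psmg4 lie highest, Psme4 lies lowest, and most diamonds lie to the right of the grey points.

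Per length, the constitutive cutting subunits were more abundant than those that replace them in every liver. In WT, the 14 core genes ran from 24.5 CPM per kilobase of transcript (RPKM) for Psma2 to 102 RPKM for Psmb6, with a median of 76.9, and the 19S genes from 30.2 for Psmd13 to 68.9 for Psmd2, with a median of 44.0. The 5 genes of the immunoproteasome and PA28 ran from 9.44 RPKM for Psmb9 to 61.7 for Psme1, with a median of 19.2. Lengths were those of the longest principal transcript in the annotation, so the order of close neighbours depends on that choice.

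Among the immunoproteasome and PA28 genes, the knockout livers were spread widely. Psmb8 (ENSMUSG00000024338.15, GRCm38 chromosome 17, 34197721 to 34201454, plus strand) replaces Psmb5 and measured 22.2, 65.4 and 27.4 CPM in the knockout and 26.4, 19.2 and 21.9 CPM in WT. The log2 difference was 0.77 ± 0.40 (SE, edgeR quasi-likelihood adjusted p = 0.271), and KO 2 alone lay above the WT range by a wide margin. Psmb10 (ENSMUSG00000031897.9, GRCm38 chromosome 8, 105935735 to 105938444, minus strand) replaces Psmb7 and measured 22.6, 58.7 and 42.6 CPM against 31.6, 21.1 and 22.8 CPM, a log2 fold change of 0.72 ± 0.34 (adjusted p = 0.236). KO 2 and KO 3 lay above every WT liver and KO 1 lay among them. Psmb9 (ENSMUSG00000096727.3, GRCm38 chromosome 17, 34181987 to 34187764, minus strand) replaces Psmb6 and did not share this pattern, with 11.5, 13.4 and 9.85 CPM against 13.2, 12.0 and 13.1 CPM and a log2 fold change of -0.14 ± 0.15 (adjusted p = 0.578). Its exons overlap those of Tap1, the peptide transporter on the opposite strand, and the use of strand in counting is not recorded, so its counts are uncertain. The same holds for Psmb8, whose exons overlap those of Gm20496 on the opposite strand.

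PA28 alpha and beta, encoded by Psme1 and Psme2, form the ring that opens the core without ATP. Psme1 (ENSMUSG00000022216.17, GRCm38 chromosome 14, 55578123 to 55581529, plus strand) measured 78.2, 161 and 120 CPM in the knockout and 71.3, 67.1 and 67.4 CPM in WT, with no overlap. Its log2 fold change was 0.80 ± 0.25 (SE, unadjusted p = 0.0161, adjusted p = 0.112, edgeR quasi-likelihood). KO 1 stood only just above the WT range. The exons of Psme1 overlap those of Emc9 on the opposite strand, so its counts are uncertain as well. Psme2 (ENSMUSG00000079197.10, GRCm38 chromosome 14, 55587441 to 55591113, minus strand) measured 61.3, 92.9 and 78.2 CPM against 63.4, 54.7 and 56.0 CPM, a log2 fold change of 0.42 ± 0.17 (adjusted p = 0.188). The copy Psme2b was listed at 2.63 to 4.75 CPM in the knockout and 2.61 to 2.85 CPM in WT, with a log2 fold change of 0.36. Psme2 and Psme2b had counts that were not whole numbers, so reads were divided between similar genes and both levels depend on that division. Over the 5 genes Psmb8, Psmb9, Psmb10, Psme1 and Psme2 the median log2 fold change was 0.72, and the median difference from the WT mean was -0.02 in KO 1, 1.22 in KO 2 and 0.43 in KO 3. Without KO 2 the median log2 fold change of the 5 genes was 0.27, and that of the core and of the 19S regulator was 0.02 and 0.04. Without KO 1 the 3 medians were 1.00, 0.20 and 0.25.

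**Figure D3:**
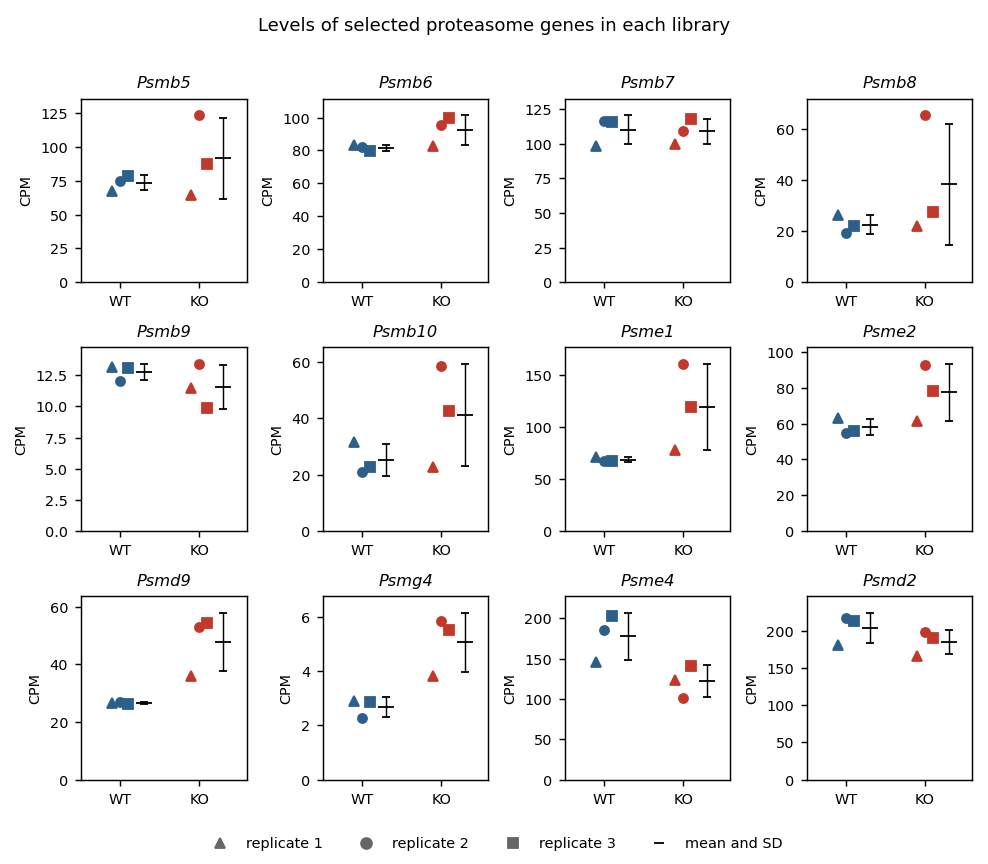
Each panel shows 1 gene in CPM on an axis from 0, with the 3 WT livers in blue, the 3 knockout livers in red, a symbol for each replicate number, and the mean with its SD in black. KO 2 (circle) is far above the other livers for Psmb8, at 65.4 CPM, and KO 1 (triangle) lies with the WT livers for Psmb8 and Psmb10.

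Within a library, the ratio of an immunoproteasome subunit to the subunit it replaces does not depend on scaling. Per kilobase, Psmb8 reached 19.1%, 29.2% and 17.3% of Psmb5 in the knockout livers and 21.6%, 14.1% and 15.3% in the WT livers. The log2 ratio differed by 0.35 between groups, and an exact permutation test gave p = 0.3 (2-sided, 3 against 3, where the smallest possible p is 0.1). Psmb10 reached 20.1%, 47.6% and 32.0% of Psmb7 in the knockout and 28.5%, 16.0% and 17.5% in WT, a log2 difference of 0.65 (exact permutation p = 0.2). Psmb9 reached 8.22%, 8.30% and 5.83% of Psmb6 in the knockout and 9.35%, 8.62% and 9.70% in WT, a log2 difference of -0.32 (exact permutation p = 0.1). The last ratio was the only one of the 3 whose groups did not overlap, with every knockout liver below every WT liver. After adjustment over the 3 ratios each p-value was 0.3, and with a smallest possible p of 0.1 none could have passed a threshold of 0.05. Without KO 2 the Psmb8 and Psmb10 differences were 0.12 and 0.35, and without KO 3 the Psmb9 difference was -0.16.

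**Figure D4:**
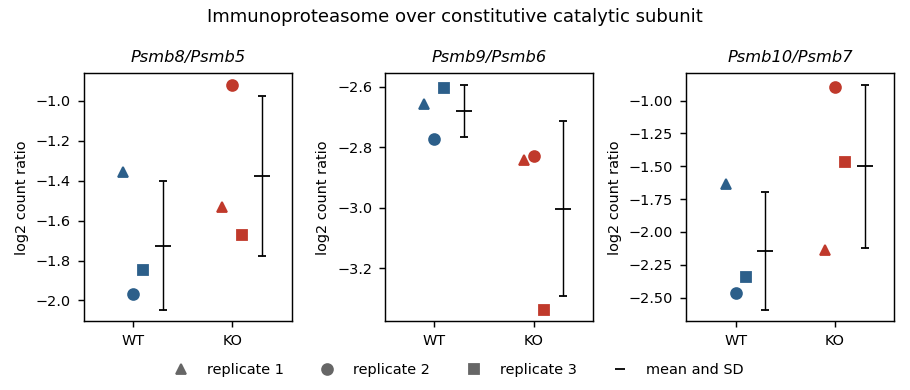
The y axes give the log2 ratio of counts of each immunoproteasome subunit to the constitutive subunit it replaces, per liver, with the mean and SD in black. KO 2 has the highest value for Psmb8 over Psmb5 and for Psmb10 over Psmb7, while for Psmb9 over Psmb6 all 3 knockout livers lie below all 3 WT livers.

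The largest log2 fold changes among the members were those of Psmg4 and Psmd9, both assembly chaperones. Over the 7 chaperones the median was 0.33, with 4 above 0 and 3 below, against 0.72 for the 5 genes of the immunoproteasome and PA28. Psmd9 (ENSMUSG00000029440.15, GRCm38 chromosome 5, 123169413 to 123250131, plus strand), which guides assembly of the 19S base, measured 36.0, 53.0 and 54.2 CPM in the knockout livers and 26.6, 26.8 and 26.3 CPM in the WT livers. The WT values were almost identical and every knockout liver was above them. The log2 fold change was 0.84 ± 0.17 (SE), or 1.80-fold with a 95% interval from 1.35 to 2.39, and the adjusted p-value of 0.0517 missed the threshold (edgeR quasi-likelihood). The gene passed it with scaling by library size alone (adjusted p = 0.0456), without the filter on low counts (0.0427), with the Xist or Y state as a covariate (0.0320) and in DESeq2 (0.00167), and did not in limma voom (0.0569). In 1 of its 7 annotated transcripts, Psmd9 spans Hpd, an abundant enzyme of tyrosine breakdown on the opposite strand, although 0 exonic bases of Psmd9 lie inside Hpd. Hpd itself rose from 1649, 1430 and 1298 CPM in WT to 3093, 3015 and 4569 CPM in the knockout (log2 fold change 1.29, adjusted p = 0.0481, edgeR quasi-likelihood). The exons of Psmd9 also overlap the long noncoding gene Gm26745 on the opposite strand. The part of these neighbours in the Psmd9 counts was not tested.

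The other chaperones of the 19S base had smaller differences. Psmd10, also called gankyrin, is on the X chromosome and is named here after its values were seen. It measured 9.44, 13.4 and 11.4 CPM in the knockout and 8.06, 8.00 and 9.09 CPM in WT, without overlap, and its difference was 0.44 ± 0.17 on the log2 scale (SE, edgeR quasi-likelihood adjusted p = 0.154). Psmd5 measured between 27.8 and 31.2 CPM in the knockout and between 29.2 and 33.8 CPM in WT, a log2 fold change of -0.14. Of the 4 genes that pair up to build the 20S core, Psmg4 (ENSMUSG00000071451.10, GRCm38 chromosome 13, 34162964 to 34178173, plus strand) measured 3.81, 5.85 and 5.50 CPM in the knockout and 2.88, 2.26 and 2.87 CPM in WT. It had the largest log2 fold change of the 49 members, 0.92 ± 0.23 (adjusted p = 0.0754), with every knockout liver above every WT liver. Its partner Psmg3 pointed the other way, with 7.74, 7.92 and 7.20 CPM in the knockout and 8.73, 9.53 and 8.64 CPM in WT, a log2 fold change of -0.23 ± 0.13 (adjusted p = 0.294), again without overlap. Psmg1 measured 15.2, 20.3 and 19.7 CPM against 14.3, 14.6 and 15.0 CPM, a log2 fold change of 0.33 (adjusted p = 0.200), and its partner Psmg2 had a log2 fold change of -0.01.

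Among the remaining caps, Psme4 had the lowest log2 fold change of the 49 members. Psme4 (ENSMUSG00000040850.17, GRCm38 chromosome 11, 30771726 to 30880361, plus strand) encodes PA200, a nuclear activator that has been linked to histone breakdown. It measured 124, 101 and 142 CPM in the knockout and 146, 186 and 203 CPM in WT. The highest knockout liver was just below the lowest WT liver, and the log2 fold change was -0.54 ± 0.19 (SE, adjusted p = 0.141, edgeR quasi-likelihood). Psme3, the nuclear PA28 gamma, measured 41.2, 66.6 and 62.9 CPM against 50.7, 54.8 and 58.6 CPM, a log2 fold change of 0.06 ± 0.20. Psmf1, the inhibitor PI31, measured 35.5, 37.2 and 27.5 CPM against 27.1, 31.8 and 29.9 CPM, a log2 fold change of 0.18 ± 0.15.

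Within the 4 livers with Y-linked counts, 2 per group, 8 of 48 members tested passed the threshold upward and 1 downward (edgeR quasi-likelihood), where 17.2% of all genes passed upward and 16.1% downward. The 8, or 16.7% of the members, were Psma7, Psmb10, Psmd9, Psmd10, Psme1, Psme2, Psmg1 and Psmg4, and the 1 below was Psme4. The upward share was therefore close to that of all genes. The log2 fold changes in these livers were 1.01 for Psmd9 (adjusted p = 0.00189), 1.20 for Psmb10 (0.00620), 1.05 for Psme1 (0.00844), 1.14 for Psmg4 (0.0115) and -0.68 for Psme4 (0.0427), all by edgeR's quasi-likelihood test. Psmb8 was at 1.17 with an adjusted p-value of 0.0685. Between KO 1 and WT 1, 1 liver each, the log2 ratios were 0.44 for Psmd9, 0.39 for Psmg4, 0.13 for Psme1, -0.23 for Psme4 and -0.48 for Psmb10. Leaving out KO 1 alone gave 9 members upward, the 8 above and Psma6, and 0 downward, or 18.4% and 0 against 16.0% and 14.2% of all genes. Leaving out any other single liver gave 0. A test of the difference between the 2 kinds of liver called 0 members, against 2.90% of all genes (edgeR quasi-likelihood interaction), and 8 of 49 had a p-value under 0.05 before adjustment, against 20.9% of all genes. The lowest such adjusted p-value among the members named was 0.0513 for Psmb10, at a log2 difference of -1.69 (effect with Xist minus effect with Y-linked counts).

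The genes around the proteasome were described from 5 lists with 68 genes tested. None of the 68 changed at an adjusted p-value of 0.05 (edgeR quasi-likelihood), while 18 had a p-value under 0.05 before adjustment, 14 of them above WT and 4 below. That is 26.5%, close to the 26.3% of all genes. DESeq2 called 9 of the 68 higher and 3 lower, or 13.2% and 4.41% against 8.74% and 7.01% of all genes, and limma voom called 0. Nfe2l1, the factor that renews proteasome genes when the proteasome is overloaded, measured 127, 115 and 109 CPM in the knockout and 116, 140 and 125 CPM in WT, a log2 fold change of -0.12 ± 0.14 (adjusted p = 0.617). Its relative Nfe2l2, the antioxidant regulator, measured 75.1, 125 and 97.6 CPM against 58.6, 65.1 and 54.5 CPM without overlap, a log2 fold change of 0.74 ± 0.20 (adjusted p = 0.0838). Nfe2l3 was at 0.16 to 0.39 CPM in the knockout and 0.21 to 0.28 CPM in WT. Pomp, the maturation chaperone of the core, had a log2 fold change of 0.13 ± 0.12, and Adrm1, a ubiquitin receptor of the 19S base, -0.14 ± 0.15. The lowest adjusted p-value of the 68 was 0.0636, for Irf7.

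The 27 genes of antigen processing and the interferon response did not move one way, with 14 fold changes above 0 and 13 below and a median log2 fold change of 0.09. Their median difference from the WT mean was -0.32 in KO 1, 0.49 in KO 2 and 0.06 in KO 3. Before adjustment 7 were higher and 4 lower with a p-value under 0.05 (edgeR quasi-likelihood), together 40.7% against 26.3% of all genes. Without overlap between the groups 5 were higher and 1 lower, or 18.5% and 3.70%, against 16.9% and 15.5% of all genes. Some of them were high in KO 2 and KO 3, the livers in which Psmb10 was above the WT range. Irf7, a factor of the type I interferon response, measured 47.5, 615 and 413 CPM against 26.7, 29.9 and 32.2 CPM (log2 fold change 3.60, edgeR quasi-likelihood adjusted p = 0.0636). Irf9, a partner in interferon signalling to the nucleus, measured 39.5, 64.3 and 67.2 CPM against 34.3, 30.7 and 31.8 CPM (0.82, adjusted p = 0.0756). For both genes KO 2 and KO 3 were high and KO 1 was the knockout liver nearest to WT. Tap1, the peptide transporter beside Psmb9, measured 19.2, 55.0 and 25.3 CPM against 27.9, 20.5 and 23.7 CPM, with KO 2 alone standing out, as for Psmb8. Tapbp, the loading factor of class I molecules, measured 89.0, 217 and 145 CPM against 94.3, 76.7 and 74.7 CPM (log2 fold change 0.88, adjusted p = 0.142). The class II chain Cd74 ran the other way, at 54.4, 12.7 and 12.1 CPM in the knockout and 79.4, 51.8 and 73.0 CPM in WT (log2 fold change -1.37, adjusted p = 0.203). The genes named from this list were chosen after their values were seen, so they do not give the balance of the list. Only Cd74 among those named in this paragraph was below WT, and it was not among the 4 counted as lower before adjustment.

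**Figure D5:**
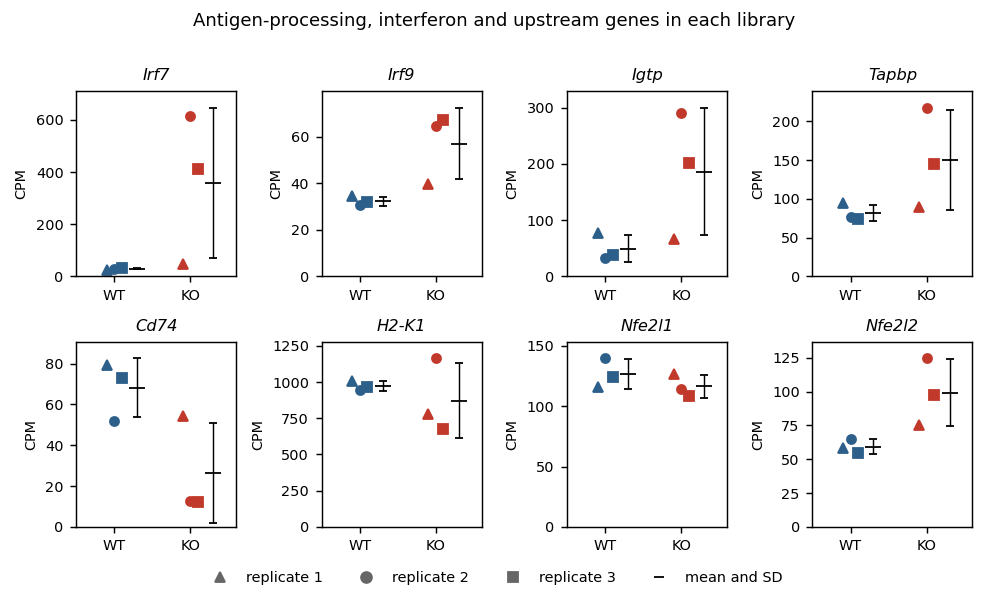
Each panel shows 1 gene in CPM on an axis from 0, with WT livers in blue, knockout livers in red and the mean with its SD in black. Irf7, Irf9, Igtp and Tapbp are high in KO 2 and KO 3 and nearer to WT in KO 1, Cd74 is low in KO 2 and KO 3, and Nfe2l1 overlaps between the groups.

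Immune cells carry immunoproteasome genes at a high level, so their markers were read beside these values. The 4 general leukocyte markers summed to 29.5, 30.2 and 14.5 CPM in the knockout and 30.8, 20.8 and 26.1 CPM in WT, and 0 of 4 passed the test, also before adjustment and in DESeq2 and limma voom. The 12 markers of Kupffer cells and macrophages summed to between 131 and 289 CPM in the knockout and between 186 and 255 CPM in WT. By edgeR 0 of 12 were called, and 1 had a p-value under 0.05 before adjustment, or 8.33% against 26.3% of all genes. DESeq2 called 1 higher, or 8.33% against 8.74% of all genes. The 10 of T and NK cells summed to between 2.00 and 3.78 CPM against 3.39 to 4.55 CPM. The 5 of B cells summed to between 0.83 and 5.63 CPM against 5.84 to 10.8 CPM, with 0 called in both lists by edgeR. Before adjustment 2 and 1 had a p-value under 0.05, or 25% and 20% of those tested against 26.3% of all genes. DESeq2 called 0 and 1 lower, or 0 and 20% against 7.01% of all genes. The 5 of dendritic cells summed to at most 3.31 CPM in every liver, and the 4 of neutrophils to between 0.61 and 0.75 CPM against 0.24 to 0.35 CPM, with Ly6g at 0 in all livers. Only 2 of the neutrophil markers had enough counts to be tested, and 0 were called. Before adjustment 1 had a p-value under 0.05 (edgeR quasi-likelihood), and 1 was higher without overlap, or 50% each against 26.3% and 16.9% of all genes. Ly6c2, a marker of monocytes from the list of Kupffer cells and macrophages, is named here after its values were seen. It was at 8.28 CPM in KO 2 and at 1.42 CPM or less in the other livers. Of the 12 fold changes in that list 7 were below 0 and 5 above. In KO 2 the median log2 difference of the list from the WT mean was -0.54, and its sum was 181 CPM. Of the 8 endothelial markers 0 passed by edgeR, and their median log2 fold change was -0.74. Before adjustment 7 had a p-value under 0.05, or 87.5% against 26.3% of all genes. DESeq2 called 3 lower, or 37.5% against 7.01%, and 7 were lower without overlap, or 87.5% against 15.5%. Within the 4 livers with Y-linked counts, edgeR's quasi-likelihood test called 2 of the 12 Kupffer cell and macrophage markers higher and 5 lower. It called 0 of the 5 B cell markers higher and 4 lower, and 0 of the 8 endothelial markers higher and 6 lower. Of 7 T and NK cell markers tested there, 1 was higher and 2 lower. Of 2 neutrophil markers 1 was higher, and 0 general leukocyte or dendritic markers were called. Over all genes 17.2% passed upward and 16.1% downward. In tissue RNA, fewer cells of a type and less RNA per cell cannot be told apart, and the part of these cells in the immunoproteasome values was not tested.

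Other large complexes and the other route of protein breakdown give a scale for these values. The 8 genes of the CCT chaperonin, which folds actin and tubulin, had a median of 0.15 on the log2 scale, with 0 called by edgeR, DESeq2 or limma voom. Among 29 nuclear genes of the respiratory chain the median was 0.74, with 1 called (Cox5b, edgeR quasi-likelihood adjusted p = 0.0481). DESeq2 called 22 higher, or 75.9% against 8.74% of all genes, and limma voom called 1. In the knockout 27 were higher without overlap, or 93.1% against 16.9% of all genes. Among 30 autophagy genes the median was -0.18, with 0 called by edgeR or limma voom. DESeq2 called 5 lower, or 16.7% against 7.01% of all genes. Before adjustment 6 had a p-value under 0.05 in edgeR, or 20.0% against 26.3% of all genes, and 12 were lower without overlap, or 40.0% against 15.5%. The core, the 19S regulator and the chaperonin had medians from 0.09 to 0.15, below that of the respiratory chain, a difference between lists that was not tested.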

How the data were processed

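The authors deposited 1 table of expected counts, estimated reads per gene that need not be whole, for 55450 genes in 6 libraries. The submitters' processing notes list bcl2fastq 2.17, cutadapt 1.18, STAR 2.7.0f, RSEM 1.3.1 and the build mm9, in no stated order. All 55450 identifiers match GENCODE release M21 on GRCm38, a newer build than mm9, so positions and lengths come from that release, and promoters from RefSeq. The use of strand is not given in the sources used here, so counts of overlapping genes (15 members share exonic bases with another gene) are uncertain, as are those of 12 members with counts that are not whole.

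Groups came from the sample titles, and 0 columns were left without a sample. Counts were rounded. Genes were kept by filterByExpr, scaled by TMM and compared with edgeR 4.0.16 (glmQLFit, glmQLFTest; R 4.3.3) with group as the only term, and p-values were adjusted by Benjamini-Hochberg over 14539 genes. CPM use TMM-scaled library sizes, and 3 counts are 0.0515 to 0.0641 CPM. The SE is the log2 fold change over the square root of F. The Xist or Y state was read from Xist and 4 Y-linked genes. Alternatives were library-size scaling, no filter, the replicate block, the state as covariate, subsets of libraries, DESeq2 1.42.0 and limma 3.58.1. The procedure was tested on simulated data.

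Genes named were Stk11, Psmb5 to Psmb10, Psme1 to Psme4, Psmf1, any member past the threshold, the largest and smallest change in each role of 3 or more members, Nfe2l1, Nfe2l2, Nfe2l3, Pomp, Adrm1 and any pathway gene past the threshold; others were chosen after their values were seen. Members, roles and lists were chosen with earlier results of these data known. Another 2 genes of the pathway lists are not reported here, and counts over those lists leave them out.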

Additional observations from a re-analysis of the deposited data

Results flagged for a closer look

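No member passed a test of the difference in knockout effect between the livers with Xist counts (1 per group) and those with Y-linked counts (2 per group), but 7 genes of the surrounding antigen-processing and interferon list did (edgeR quasi-likelihood interaction, adjusted over all genes; 2.90% of all genes passed). Values are the log2 knockout effect in the Xist pair minus that in the livers with Y-linked counts. They were -4.82 for Gbp3 (adjusted p = 0.0293), -3.22 for Irf7 (0.0200), -3.05 for Gbp7 (0.0175), -2.99 for Igtp (0.0200), -1.61 for Irgm1 (0.0390) and -1.20 for Irf1 (0.0452). In each of these 6 interferon-induced genes the knockout effect was lower in the Xist pair. For the class II chain Cd74 the value was 1.79 (adjusted p = 0.04998). With 1 liver per group in the Xist pair, a difference between the kinds of liver and a difference of the single mouse KO 1 cannot be told apart.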

How the results depend on the processing

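The number of members called higher was 0 of 49 as reported, 1 with scaling by library size alone, without the low-count filter or with the Xist or Y state as covariate (Psmd9 each time), 8 of 48 when KO 1 and WT 1, the libraries with Xist counts, were both left out, and 3 in DESeq2 (Psmd9, Psme1 and Psmg4). Leaving out single libraries gave 0 to 9, the 9 without KO 1. Called lower was 1 member (Psme4) without KO 1 and WT 1, and 0 otherwise. In limma voom 0 were called. The median log2 fold changes of the core, of the 19S regulator and of the immunoproteasome with PA28 stayed above 0 under every setting run, but single libraries moved them by over 1.5 times: leaving out 1 at a time gave 0.024 to 0.20 for the core, 0.042 to 0.25 for the 19S regulator and 0.27 to 1.00 for the immunoproteasome with PA28, in each case lowest without KO 2 and highest without KO 1. Values near 0 changed sign with the setting, in genes that passed under no setting. Library-size scaling gave 0.029 for Psmb7, 0.038 for Psmc4, 0.0020 for Psmb3 and 0.037 for Psmd4, and leaving out KO 1 and WT 1 together gave 0.083 for Psmc4, 0.055 for Psmb3, 0.016 for Psmd4 and -0.20 for Nfe2l3. Psma5 was -0.0053 with the replicate block, -0.0039 with the state as covariate and -0.0036 in limma voom. Leaving out single libraries gave ranges of -0.10 to 0.039 for Psmb7, -0.067 to 0.24 for Psme3, -0.11 to 0.18 for Psma5, -0.077 to 0.12 for Psmc4, -0.13 to 0.075 for Psmb3, -0.15 to 0.070 for Psmd4 and -0.33 to 0.39 for Nfe2l3. The cause was not tested.

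Same-numbered livers are different animals. Deviations of KO and WT libraries with the same number correlated at 0.18, 0.04 and 0.07 across genes, and KO 2 and KO 3 correlated best with another number, and the numbers were not taken as pairs. With the replicate block, 0 members were called and Psmd9 had a log2 fold change of 0.82 (adjusted p = 0.0885, edgeR quasi-likelihood).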
